A study of Homo sapiens and Mus musculus with 20 samples.

Results

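The genes through which colon cells sense and take up short-chain fatty acids were followed in chromatin accessibility data from SW480, an established human colorectal adenocarcinoma line. The set held 10 genes. Among them were the receptors FFAR2, FFAR3 and HCAR2 and the sodium-coupled carriers SLC5A8 and SLC5A12. The others were the SLC16 family carriers SLC16A1, SLC16A3, SLC16A4 and SLC16A7, and BSG, the partner protein of some of these carriers. All accessible regions within each gene body or 20 kb on both sides were taken (GENCODE 44, GRCh38), which gave 89 of 252173 regions merged over 12 libraries. The assay was ATAC-seq, which uses a transposase to cut open chromatin and tag the fragments for sequencing. One experiment compared 3 libraries of cells given 10 mM sodium propionate (NaPr) with 3 untreated libraries, and a second experiment compared 3 libraries of cells given 1 mM sodium butyrate (NaBu) with 3 untreated libraries of its own. Treatments lasted 12 to 16 h per the labels, while the study's methods for its cell lines give 12 h, and each reaction used 50000 cells. The 2 experiments carry different dates in the labels. Because the doses also differ, NaPr and NaBu values are set side by side and were not tested against each other.

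Propionate and butyrate are made in the gut lumen by microbes that ferment dietary fibre, and butyrate is a main fuel of normal colon epithelium. SLC16A1 (MCT1) and the sodium-coupled SLC5A8 (SMCT1) carry both acids into cells, while SLC5A12 (SMCT2) is a sodium-coupled carrier of lower affinity and SLC16A7 (MCT2) a proton-coupled one of high affinity for pyruvate. SLC16A3 (MCT4) is best known for letting lactate out of glycolytic cells. BSG (basigin, CD147) brings SLC16A1 and SLC16A3 to the plasma membrane. FFAR2 and FFAR3 are G protein-coupled receptors for short-chain fatty acids, and HCAR2 is a receptor for butyrate, the ketone body β-hydroxybutyrate and niacin.

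The deposited lists give peaks and no reads. Each region was therefore scored by its percentile rank within a library, from 100 for the strongest peak by −log10 p to 0 for a region without a listed peak. A change is a difference of mean ranks in percentile points with its standard error (SE), and is not a fold change. Regions with a peak in at least 2 of the 6 libraries of an experiment were tested with limma, and those with a Benjamini-Hochberg adjusted p under 0.05 over all tested regions were called. The lists stop near 300000 summits, so the weakest listed peak differed between libraries, from a −log10 p of 3.37 to 9.38. A rank of 0 thus means no peak above that library's own limit. The lowest background pileup of each library, which follows depth, was 0.936 to 2.35 tags in the NaPr experiment and 2.11 to 3.03 in the NaBu experiment. Of the epithelial markers sought, EPCAM, CDH1, KRT8, KRT18, KRT19, CDX2 and VIL1 had a promoter peak in 12 of 12 libraries and CDX1 in 0. PTPRC, CD3E, PECAM1 and ALB, markers of blood, endothelium and liver, had none, whereas the fibroblast gene COL1A1 had one in all 12, at ranks of 82.2 to 94.9. The labels do not say whether replicates were separate cultures, so p-values measure the spread between these libraries, which may be technical.

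The genes fell into a group with an open canonical start and a group without one. A promoter region, overlapping 500 bp on both sides of the start of the Ensembl canonical transcript, was present in all 12 libraries at SLC16A1, SLC16A3, SLC16A4, SLC16A7 and BSG. None was listed in any library at the canonical starts of FFAR2, FFAR3, HCAR2, SLC5A8 and SLC5A12, that is, at all 3 receptors and both sodium-coupled carriers. FFAR3 and HCAR2 lie beside similar copies, GPR42 and HCAR3, and how reads shared by copies were placed is not given. A missing peak at FFAR3 or HCAR2 therefore need not mean a closed start, which was not tested. FFAR2 still had a region in all 12 libraries at an alternative annotated start, with its summit 1.34 kb downstream of the canonical one. Over the genome, 77.8% of 20007 protein-coding genes (15568) had a region at the canonical start in any library. A region there in all 12 libraries was present at 13145 genes.

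The upstream sequences show how different these starts are. RefSeq promoters (GRCh38.p14, 250 bases before to 50 after the start) were given for 7 of the 10 genes. SLC16A1, FFAR3 and HCAR2 had none, so they are missing from what follows. The stretch before the first annotated exon is printed 5′ to 3′ on the gene's strand. It is given for 3 genes with an open canonical start and for 2 without one. Capitals mark matches, on either strand, to GGGCGG (the GC box of SP and KLF factors), TGANTCA (AP-1), CACGTG (an E-box of MYC), TGACGTCA (the cAMP response element) and TATAAA (the TATA box).
SLC16A3, chr17:82228792-82229041, + strand: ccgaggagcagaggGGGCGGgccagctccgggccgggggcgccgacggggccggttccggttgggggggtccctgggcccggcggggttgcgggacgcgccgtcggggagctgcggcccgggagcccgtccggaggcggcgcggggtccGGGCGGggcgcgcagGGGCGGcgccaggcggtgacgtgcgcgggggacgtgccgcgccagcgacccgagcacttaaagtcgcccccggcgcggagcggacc
BSG, chr19:572346-572528, + strand: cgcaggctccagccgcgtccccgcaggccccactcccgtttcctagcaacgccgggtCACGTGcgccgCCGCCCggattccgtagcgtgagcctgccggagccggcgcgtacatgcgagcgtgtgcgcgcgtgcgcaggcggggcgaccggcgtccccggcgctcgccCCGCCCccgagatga
SLC16A4, chr1:110391083-110391276, − strand: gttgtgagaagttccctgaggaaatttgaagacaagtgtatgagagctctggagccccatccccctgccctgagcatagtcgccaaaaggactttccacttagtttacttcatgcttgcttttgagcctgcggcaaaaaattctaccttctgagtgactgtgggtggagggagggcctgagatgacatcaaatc
FFAR2, chr19:35448007-35448256, + strand: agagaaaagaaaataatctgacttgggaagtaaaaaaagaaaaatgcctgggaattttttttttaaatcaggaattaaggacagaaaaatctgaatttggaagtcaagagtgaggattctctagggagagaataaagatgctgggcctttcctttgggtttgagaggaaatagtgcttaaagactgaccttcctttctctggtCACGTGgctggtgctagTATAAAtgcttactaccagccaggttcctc
SLC5A12, chr11:26722061-26722310, − strand: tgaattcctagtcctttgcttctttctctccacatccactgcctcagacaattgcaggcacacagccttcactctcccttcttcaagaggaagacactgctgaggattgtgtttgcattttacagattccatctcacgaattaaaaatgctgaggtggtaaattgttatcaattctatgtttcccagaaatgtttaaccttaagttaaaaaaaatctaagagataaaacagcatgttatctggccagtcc
In the whole 300 bases, SLC16A3 had a GC content of 82.7% with 51 CpG dinucleotides and BSG 75.3% with 54, against medians of 58.7% and 14 over all 34943 promoters. SLC16A7 also lay above these medians, at 62.7% and 21. FFAR2 had 40.3% with 1 CpG, SLC5A12 39.3% with 1 and SLC5A8 48.7% with 12. SLC16A4 was open in every library and yet had only 49.3% GC and 3 CpG. The GC box occurred 3 times in SLC16A3 and 3 times in BSG, and 44.9% of all promoters held at least 1. CACGTG, held by 7.23% of promoters, occurred once in BSG and once in FFAR2. TATAAA, held by 11.6%, occurred once in each of the same promoters, in BSG within bases that are not printed. Neither TGANTCA (7.72% of promoters) nor TGACGTCA (1.84%) occurred in these 7 promoters. These matches describe letters and not binding.

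SLC16A4 and SLC16A1 had the highest promoter ranks of the set. In the untreated NaBu libraries, the promoter of SLC16A4, a carrier whose substrates are less well known, ranked at 90.9 ± 1.22 (SD, n = 3), followed by SLC16A1 at 84.4 ± 3.54, SLC16A7 at 80.8 ± 1.69, SLC16A3 at 69.8 ± 0.908 and BSG at 50.2 ± 2.27. Of the neighbours in that order, SLC16A1 (80.5 to 87.4) and SLC16A7 (79.8 to 82.7) overlapped and the others did not. In the untreated NaPr libraries the order was SLC16A4 (90.5 ± 3.13), SLC16A1 (88.7 ± 1.61), SLC16A3 (77.3 ± 4.44), BSG (75.2 ± 5.08) and SLC16A7 (67.1 ± 5.58). There the first pair overlapped, as did SLC16A3 with BSG and BSG with SLC16A7. The median rank of protein-coding promoter regions was 85.3 in the untreated NaBu libraries and 87.9 in the untreated NaPr libraries, so SLC16A3, SLC16A7 and BSG sat below the typical promoter in both.

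**Figure D1:**
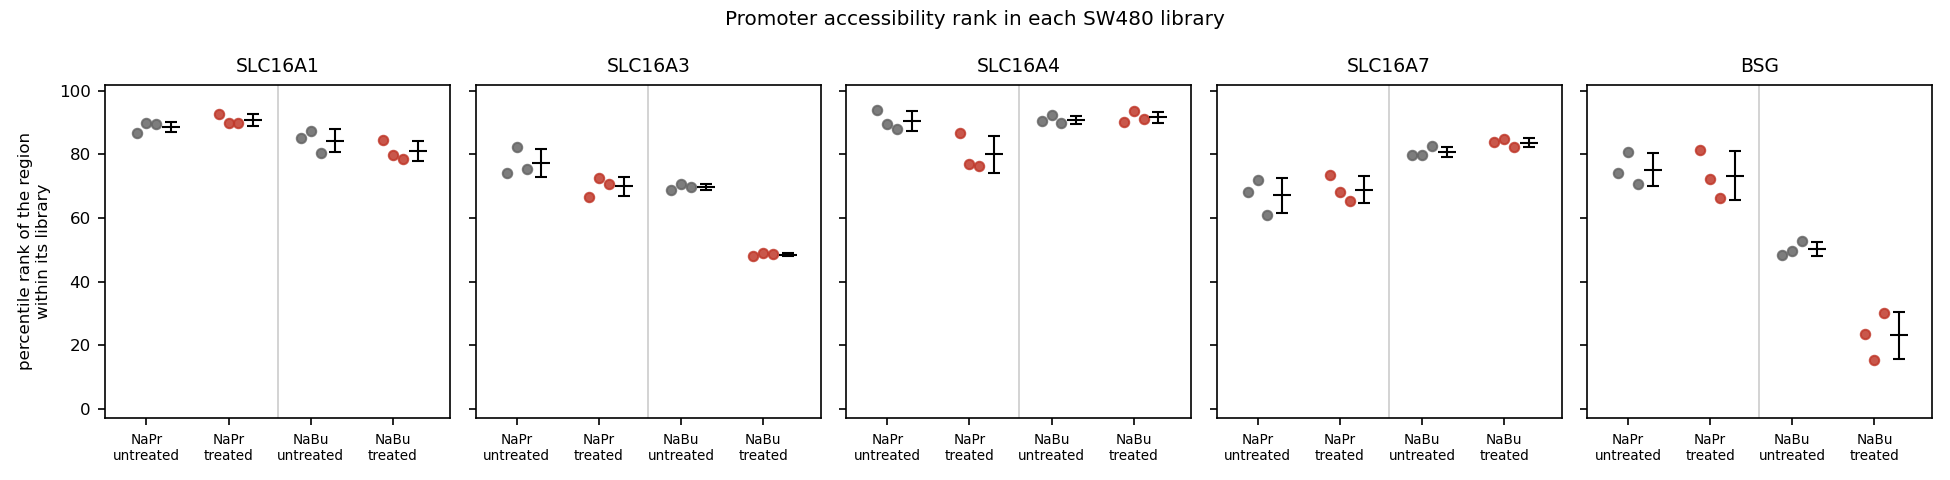
Percentile rank of the promoter region of 5 genes (y axis) in each of 12 SW480 libraries, grouped by experiment and treatment on the x axis; points are libraries and the black marks give mean and SD (n = 3). SLC16A3 and BSG fell in all 3 NaBu libraries, to ranks of 48.0 to 48.9 and 15.5 to 30.1, while SLC16A4 fell in the NaPr libraries, to 76.5 to 86.7.

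After NaBu the promoter regions at the canonical starts of BSG and SLC16A3 lost rank. The BSG promoter (chr19:572117-573591, with annotated starts of BSG and of BSG-AS1) ranked at 48.4, 49.5 and 52.7 in the untreated libraries and at 23.6, 15.5 and 30.1 in the treated libraries. All treated values lay below all untreated values, a change of −27.1 ± 6.02 points (SE, adjusted p = 0.00908). The fold enrichment that the authors' peak caller gave for its summit was 6.65, 6.18 and 7.09 in untreated and 5.25, 5.22 and 5.92 in treated libraries. When regions were ranked by that fold instead, the change was −16.3 ± 6.23 points and was no longer called (adjusted p = 0.105).

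The SLC16A3 promoter (chr17:82228097-82229692, summit in an intron of a longer transcript, 637 bp upstream of the canonical start) had the lowest spread between replicates of the 5 promoters in the NaBu experiment. Its ranks were 68.9, 70.7 and 69.7 in untreated and 48.0, 48.9 and 48.6 in NaBu libraries. The groups were far apart compared with their spread (−21.3 ± 3.24 points, adjusted p = 0.00189). Its fold enrichment was 6.11, 6.19 and 6.05 in untreated and 4.56, 4.94 and 4.66 in treated libraries. It was called under all 18 alternatives, with adjusted p between 1.43e-06 and 0.0230. A region 11.1 kb upstream that holds another annotated start of SLC16A3 was listed in 12 libraries. That region was not called after NaBu, going from 49.9 ± 10.1 to 48.9 ± 0.881 (−0.97 ± 5.87, adjusted p = 0.908).

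The other 3 promoters were not called after NaBu. SLC16A1, the main entry route for butyrate, ranked at 85.2, 87.4 and 80.5 in untreated and 84.7, 79.7 and 78.6 in treated libraries, and the groups overlapped (−3.35 ± 2.20 points, adjusted p = 0.255). On the scale of log2 summit pileup divided by background pileup its change was −0.42 ± 0.120 and was called (adjusted p = 0.00721), so the call at this promoter depends on the quantity. SLC16A7 went from 80.8 ± 1.69 to 83.8 ± 1.40 (+2.97 ± 1.41, adjusted p = 0.129). SLC16A4 went from 90.9 ± 1.22 to 91.6 ± 1.77 (+0.70 ± 1.08, adjusted p = 0.628). Thus 2 of 5 promoters fell and 0 of 5 rose, where 20.5% of 12939 protein-coding promoter regions tested fell and 9.71% rose.

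After NaPr the promoter of SLC16A4 lost rank. It ranked at 94.0, 89.5 and 87.9 in untreated and 86.7, 77.0 and 76.5 in treated libraries. The groups did not overlap, the nearest pair being 87.9 and 86.7 (−10.4 ± 2.62 points, adjusted p = 0.0450). Leaving out treated replicate 2 or 3 or any untreated library ended this call, with adjusted p of 0.115 to 0.161. The SLC16A3 promoter moved the same way without reaching the threshold, from 74.1, 82.3 and 75.4 to 66.7, 72.5 and 70.8 (−7.25 ± 3.10, adjusted p = 0.193). SLC16A1 (+2.13 ± 1.32, adjusted p = 0.346), SLC16A7 (+1.86 ± 4.07, adjusted p = 0.814) and BSG (−1.90 ± 3.97, adjusted p = 0.804) were not called either. The SLC16A3 and BSG promoters were each called under 1 of 18 alternatives. For SLC16A3 this was log2 summit pileup scaled by its median (−0.568 ± 0.125, adjusted p = 0.000371). For BSG it was regions built from summits (−40.4 ± 9.11 points, adjusted p = 0.0314). With 1 of 5 promoters lower and 0 higher, the background was 5.62% lower and 0.853% higher of 13252 protein-coding promoter regions.

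Over the whole windows, 19 of 50 tested regions were called after NaBu, 8 higher and 11 lower. The background was 37.1% of all 123730 tested regions, 24% higher and 13.1% lower, so the share of the 10 genes (38%) was near that of the genome. The median change of the 50 regions was −0.13 points, against 2.92 over all tested regions. The treated lists were longer, with a peak in 108287 to 111016 regions against 96813 to 102797 in the untreated ones. With the same number of top regions ranked in each library (96813), the median of all regions was 0.26, the calls over all regions went from 64.7% higher to 50.6% higher, and 18 of 45 regions of the set were called, 6 higher and 12 lower, against 36.6% of all, 18.5% higher and 18.1% lower. Groups did not overlap at 24 of 50 regions, against 48.7% of all regions.

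After NaPr 5 of 50 tested regions were called, 2 higher and 3 lower, against a background of 5.32% of 124067, with 3.1% higher and 2.22% lower. A further count at an unadjusted p under 0.05 gave 13 of 50 regions, against 28645 of 124067 over all tested regions. With the same number of top regions, 6 of 48 were called, 1 higher and 5 lower, against 9.33% of all, 4.89% higher and 4.44% lower, and the calls over all regions went from 58.3% to 52.4% higher. Groups did not overlap at 15 of 50 regions, against 26.2% of all. Leaving out any 1 of the 6 libraries left 0 or 1 call among the tested regions of the set, with 10 to 14 at an unadjusted p under 0.05. Shares over all regions without 1 library are not given here, so these counts are a description. Of the 89 regions, 64 were tested in at least 1 experiment, 36 in both, 22 were called in at least 1 and 2 in both. Some regions passed the filter through 1 group alone, such as BSG +2.28 kb and SLC5A12 +72.4 kb below, and these had to differ, so the counts describe the windows and support nothing further.

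**Figure D2:**
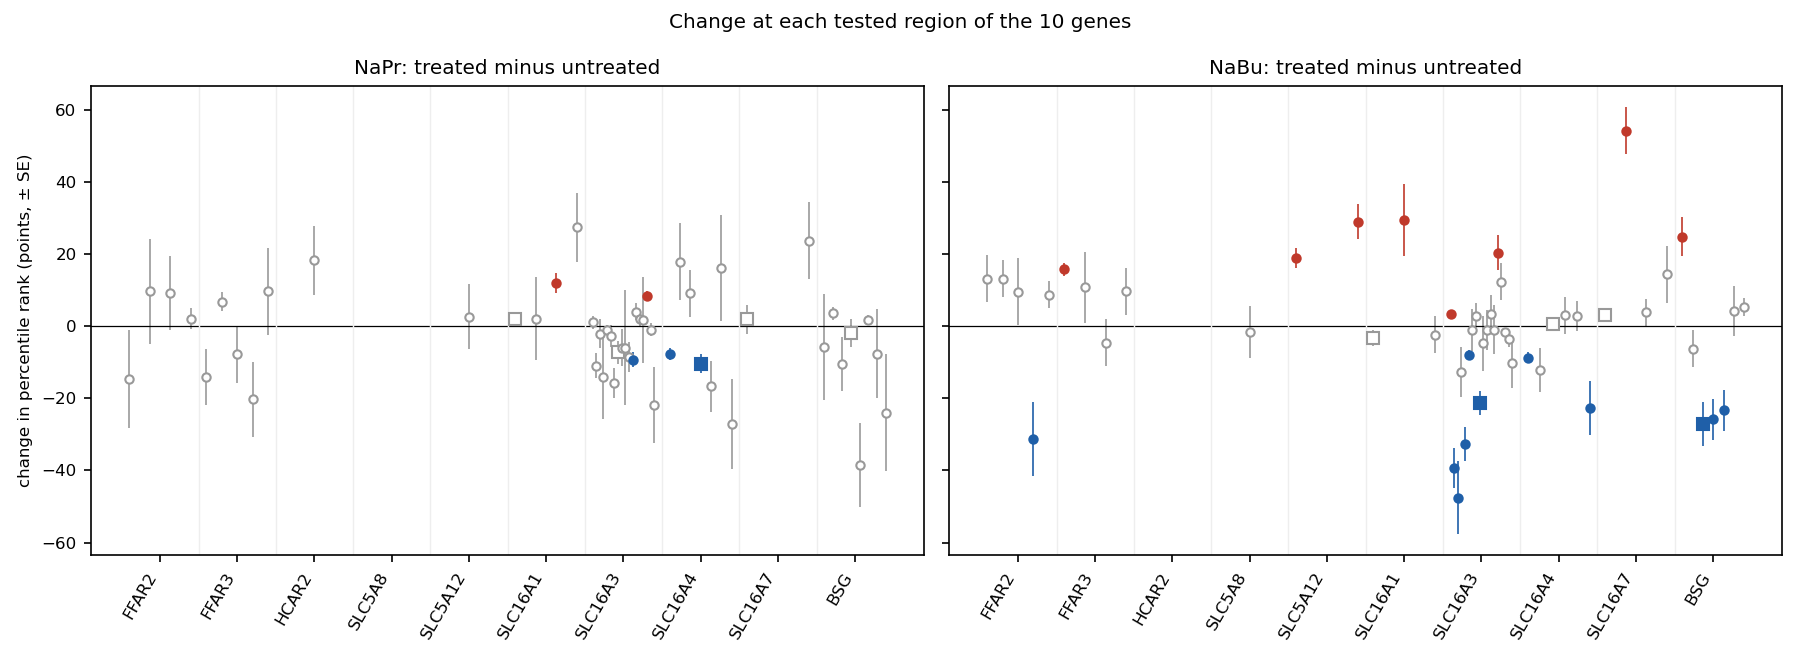
Change in percentile rank (treated minus untreated, points, bars ± SE) at each tested region of the 10 genes, NaPr left and NaBu right, with regions of a gene ordered by position and promoter regions as squares; filled red and blue symbols were called higher and lower, open grey symbols were not called. NaBu changes ran from −47.5 points at SLC16A3 to 54.2 points at SLC16A7, and 5 regions were called after NaPr.

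Among the carriers, the largest rise lay inside SLC16A7. This region (chr12:59649072-59649750) is in an intron, 53.2 kb downstream of the start. It had no peak in any of the 6 NaPr libraries. In the NaBu experiment it ranked at 0, 6.7 and 18.3 in untreated and at 62.5, 60.4 and 64.8 in treated libraries. The treated values lay far above all untreated values (+54.2 ± 6.46 points, adjusted p = 0.000779), and the call held under all 15 alternatives that gave a value. Within the top 50000 intervals the change was 13.7 points. Fold enrichment was 4.82 and 5.74 in the untreated libraries with a peak and 13.2, 11.9 and 14.1 in the treated libraries.

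Around SLC5A12, which had no open start, the only region listed in all 12 libraries lay beyond the far end of the gene, in an intron of ANO3. Weak peaks in an intron of SLC5A12 (25.5 kb from the start) and 8.88 kb upstream were listed in 1 and 2 libraries. At 72.0 kb from the start (chr11:26649868-26650445) the ranks were 58.0, 65.4 and 58.6 in untreated and 80.5, 77.9 and 80.5 in NaBu libraries (+18.9 ± 2.70, adjusted p = 0.00148). A smaller region next to it, at 72.4 kb (chr11:26649465-26649750), was listed at 33.0, 29.3 and 24.6 in the NaBu libraries and in no other library. It was tested only because of the treated libraries and had to differ, so its values are a description. The region at 72.0 kb was called under all 18 alternatives. After NaPr that region did not move beyond its spread, from 45.6 ± 7.56 to 48.2 ± 10.4 (adjusted p = 0.886). SLC5A8, the other sodium-coupled carrier, had a single region in its window, 64.3 kb from the start, with 0, 12.1 and 14.7 in untreated and 0, 0 and 22.1 in NaBu libraries (adjusted p = 0.878).

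A region 48.6 kb downstream of the SLC16A1 start (chr1:112907421-112907958, intergenic) was called higher in both experiments. It ranked at 68.1, 78.3 and 72.3 in untreated and 84.3, 82.2 and 87.8 in NaPr libraries (+11.9 ± 2.77, adjusted p = 0.0354). In the NaBu experiment it ranked at 0, 10.6 and 40.2 in untreated and 46.6, 49.7 and 43.0 in treated libraries (+29.5 ± 9.97, adjusted p = 0.0477). Groups did not overlap in either, but neither call held with the same number of top regions (adjusted p = 0.0550 for NaPr and 0.0733 for NaBu). Leaving out any 1 NaPr library ended the first call (adjusted p up to 0.130), and leaving out any 1 NaBu library other than untreated replicate 3 ended the second (up to 0.149).

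The sequence around 3 of the rising summits is shown because these regions, unlike the promoters, lie far from any start of their gene. Each line gives 200 bases of GRCh38 on the + strand centred on the summit, with the same motifs in capitals.
SLC16A7 +53.2 kb, chr12:59649162-59649361: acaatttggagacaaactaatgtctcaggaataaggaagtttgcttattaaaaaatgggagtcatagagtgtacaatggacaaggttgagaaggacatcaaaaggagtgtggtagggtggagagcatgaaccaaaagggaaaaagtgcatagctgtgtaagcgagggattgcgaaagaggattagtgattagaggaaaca
SLC5A12 +72.0 kb, chr11:26649913-26650112: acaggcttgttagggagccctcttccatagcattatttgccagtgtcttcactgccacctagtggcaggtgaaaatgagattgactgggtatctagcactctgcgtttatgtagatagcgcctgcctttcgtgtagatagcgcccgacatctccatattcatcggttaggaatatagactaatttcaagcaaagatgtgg
BSG −16.5 kb, chr19:555977-556176: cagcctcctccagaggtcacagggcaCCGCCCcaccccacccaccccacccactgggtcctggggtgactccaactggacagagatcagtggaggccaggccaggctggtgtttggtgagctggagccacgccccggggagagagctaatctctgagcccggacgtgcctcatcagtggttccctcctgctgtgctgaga
The GC content was 40.5%, 46% and 65.5%. The GC box occurred once, in the BSG window. TGANTCA, which 20% of the 123730 tested regions held within 200 bases of the same placing, was in none of the 3, nor was CACGTG (4.16%), TGACGTCA (0.465%) or TATAAA (7.95%).

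**Figure D3:**
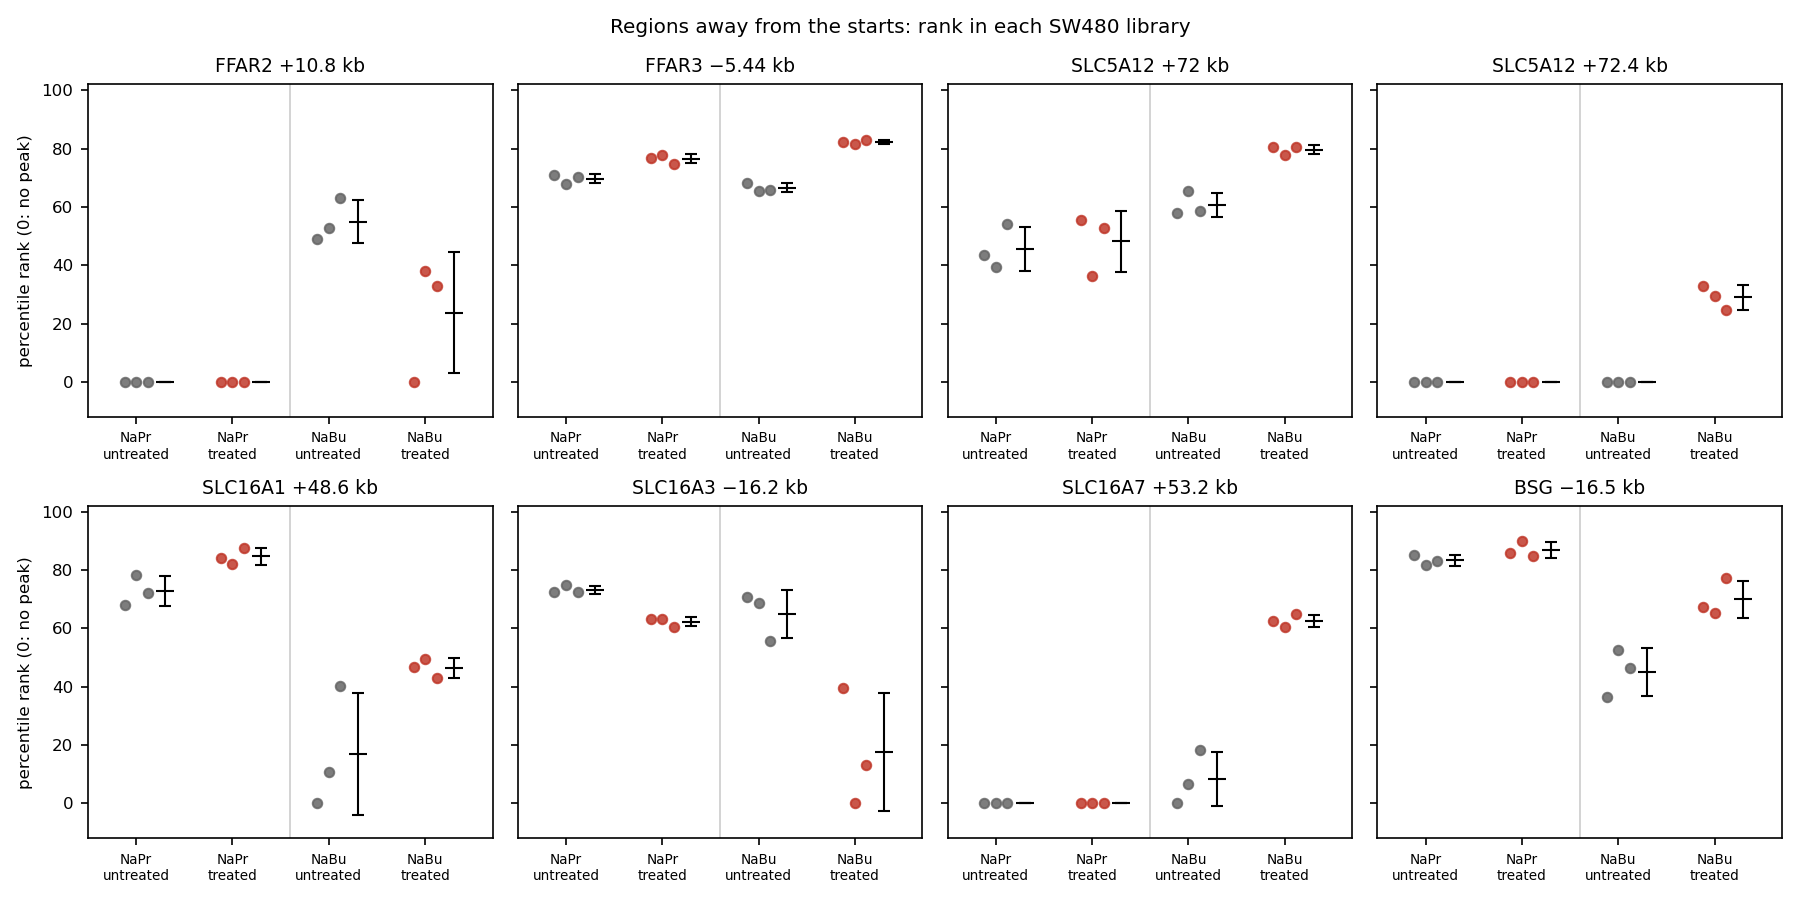
Percentile rank (y axis, 0 for no peak) in each of 12 SW480 libraries at 8 regions away from the starts, grouped by experiment and treatment on the x axis; points are libraries and black marks give mean and SD (n = 3). SLC16A7 +53.2 kb and SLC5A12 +72.4 kb had no peak in the NaPr experiment and ranked at 60.4 to 64.8 and 24.6 to 33.0 in the NaBu treated libraries.

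SLC16A3 had the most regions of the set, 24, and moved in both directions after NaBu. Besides the promoter, 4 regions upstream were called lower, of which 2 had a listed peak in at least 2 libraries of only the untreated group. The largest change was 16.2 kb upstream (chr17:82212570-82212973), at the start of the neighbouring gene CCDC57, with ranks of 70.9, 68.7 and 55.7 in untreated and 39.6, 0 and 13.1 in treated libraries (−47.5 ± 10.0, adjusted p = 0.00731). Within the top 50000 intervals the change was −25.7 points. A region of 73 bp, 16.6 kb upstream in an intron of CCDC57, went from 45.1, 41.3 and 32.9 to 1.2, 0 and 0. At 13.2 kb upstream the peak was listed at 31.9, 31.2 and 34.6 in untreated and in no treated library. The untreated libraries alone brought both of these into the test, so they had to differ. The strongest of the 4, 12.1 kb upstream, fell by 7.97 points from 87.4 to 79.4 (adjusted p = 0.00400, and 0.468 when regions were ranked by fold). Against these, 2 regions rose. One lay 17.8 kb downstream, in introns of both SLC16A3 and CSNK1D (+20.3 ± 4.87, adjusted p = 0.0125), but ranking by fold turned its direction and ended the call (−0.63 ± 2.39, adjusted p = 0.867). The other, 23.0 kb upstream in CCDC57, changed little (+3.51 ± 1.08, adjusted p = 0.0342), and its call was lost with the same number of top regions (0.0635), with summit pileup (0.716) and without any treated library or untreated replicate 1 (0.0589 to 0.103).

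After NaPr, SLC16A3 changed at other positions. A region over a coding exon 9.83 kb downstream of the start (chr17:82238535-82239595) ranked at 82.8, 86.7 and 83.9 in untreated and 74.7, 72.8 and 77.9 in treated libraries (−9.32 ± 2.12, adjusted p = 0.0327). A region 38.7 kb downstream, in an intron of CSNK1D, rose from 85.1, 85.2 and 83.8 to 95.8, 90.9 and 92.4 (+8.35 ± 1.41, adjusted p = 0.0112). The CCDC57 start 16.2 kb upstream had the same direction as after NaBu, from 73.3 ± 1.41 to 62.3 ± 1.51, and was not called (−11.0 ± 3.40, adjusted p = 0.0834). Leaving out any 1 library ended the call of the exon region (adjusted p up to 0.136), and leaving out any 1 but untreated replicate 1 ended that of the CSNK1D region (up to 0.0805).

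After NaBu, BSG lost rank at its canonical start, as given above, and a region upstream gained. A region 0.818 kb upstream (chr19:570901-571969) also holds annotated starts of BSG and BSG-AS1 and was listed in all 12 libraries. It was not called after NaBu, with 49.1, 47.6 and 54.7 in untreated and 39.6, 49.8 and 43.2 in treated libraries (−6.26 ± 5.14, adjusted p = 0.357). At 2.28 kb downstream the peak was listed at 17.0, 25.4 and 35.2 in untreated and in no treated library, and 2.54 kb downstream at 14.6, 32.5 and 22.9 in untreated and in no treated library. Both were tested only because of the untreated libraries and had to differ, so their values are a description. The region at 2.54 kb also holds an annotated start of BSG. These peaks are short, 157 and 150 bp, and neither was listed in any NaPr library. At 16.5 kb upstream (chr19:555780-557021, intergenic) ranks rose from 36.4, 52.8 and 46.3 to 67.5, 65.3 and 77.1 (+24.8 ± 5.37, adjusted p = 0.00813), a call held under all 18 alternatives. The same region ranked at 83.4 ± 1.88 in untreated and 86.9 ± 2.68 in treated NaPr libraries (+3.55 ± 1.75, adjusted p = 0.248). The most changed BSG region after NaPr, 11.9 kb downstream, went from 62.7, 66.4 and 59.1 to 0, 43.4 and 29.6 and missed the threshold (−38.4 ± 11.6, adjusted p = 0.0773, and 0.0480 with the same number of top regions).

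**Figure D4:**
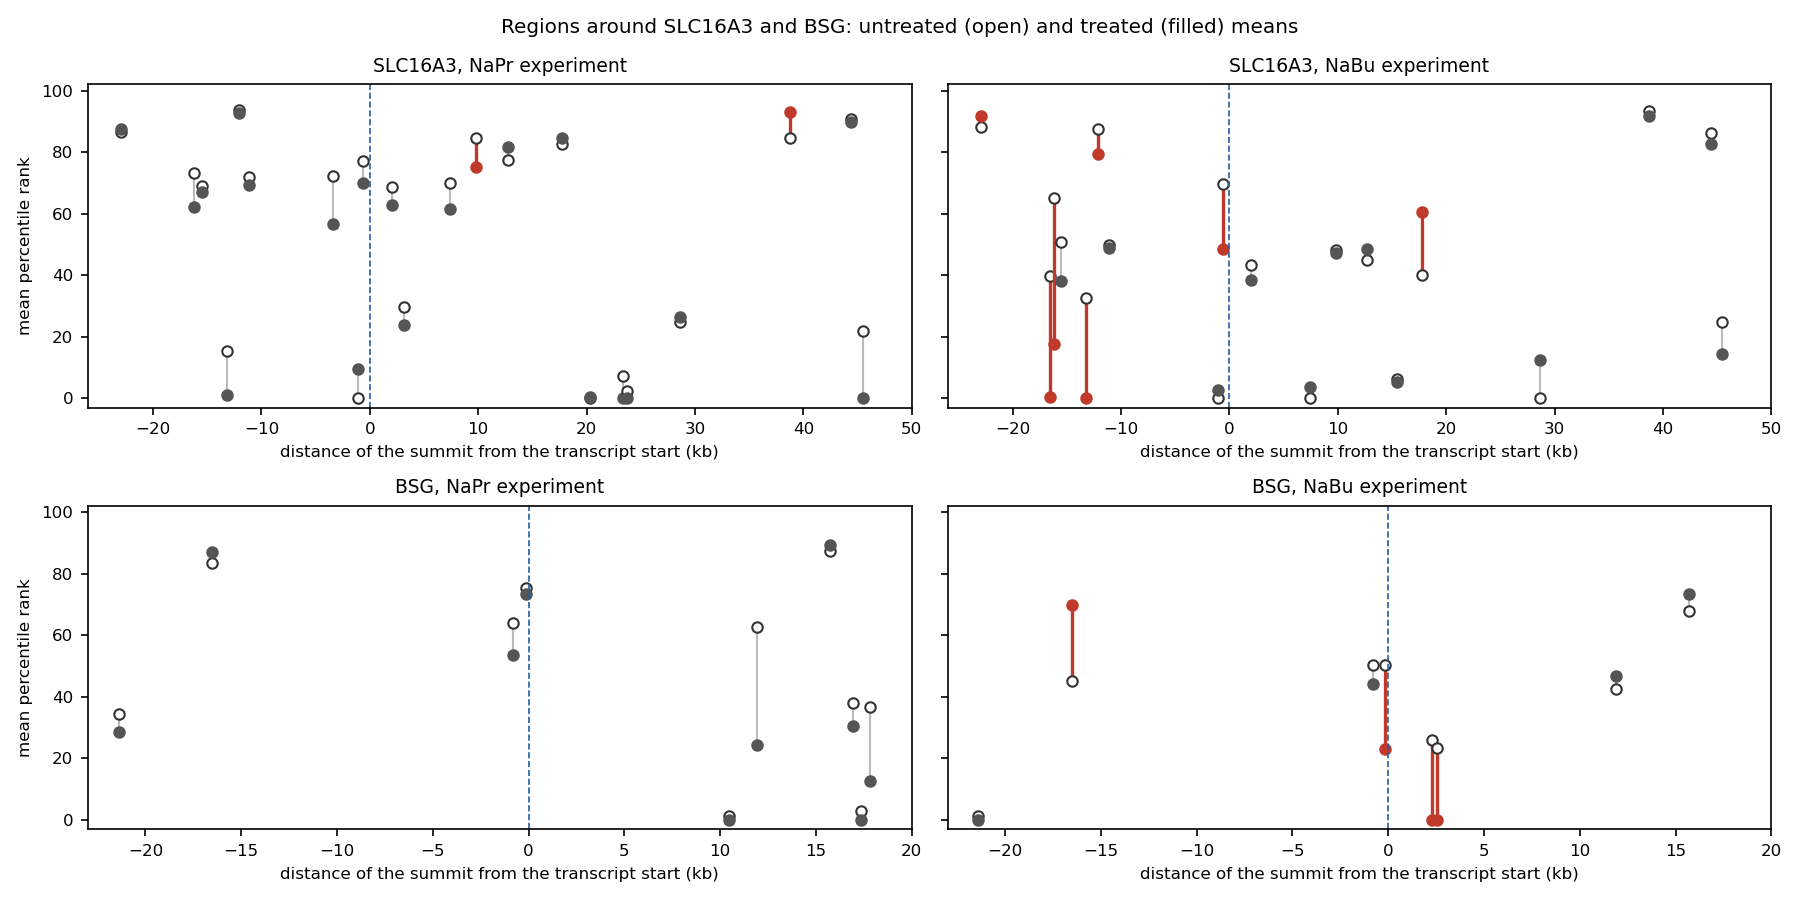
Mean percentile rank (y axis, n = 3) of untreated (open) and treated (filled) libraries at each region of SLC16A3 (top) and BSG (bottom) against the distance of the summit from the transcript start in kb (x axis, dashed line at 0), NaPr left and NaBu right; called regions are red and regions at 0 in both groups are left out. After NaBu, 5 SLC16A3 regions at or upstream of the canonical start were called lower. At BSG the region at the canonical start fell and the one 16.5 kb upstream rose. The BSG regions 2.28 and 2.54 kb inside the gene had no peak in treated libraries.

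At SLC16A4, a region called in both experiments belonged to its neighbour. The start of LAMTOR5, which encodes a subunit of the Ragulator complex, lies 16.6 kb upstream (chr1:110406886-110408270) and fell in both. It ranked at 91.6, 95.2 and 91.4 in untreated and 81.7, 86.3 and 87.0 in NaPr libraries (−7.74 ± 1.65, adjusted p = 0.0264). In the NaBu experiment it ranked at 94.4, 92.9 and 92.2 in untreated and 84.5, 87.6 and 81.1 in treated libraries (−8.75 ± 1.58, adjusted p = 0.00377). The NaBu call was lost when regions were ranked by fold (adjusted p = 0.0657), and leaving out any 1 NaPr library ended the NaPr call (up to 0.119). A weak region 34.4 kb downstream, beyond the gene in an intron of LAMTOR5-AS1, went from 10.1, 39.8 and 18.3 to no peak after NaBu by a mean of −22.7 points, or −14.2 without untreated replicate 2. It entered the test through the untreated libraries alone, so it had to differ, and its call was lost without any 1 library other than untreated replicate 1 (adjusted p up to 0.115).

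The receptor genes held few strong regions. At FFAR3 the rising region lay 5.44 kb upstream (chr19:35352268-35353487), in the untranslated part of FFAR1, the neighbouring receptor for long-chain fatty acids. It ranked at 68.3, 65.3 and 66.0 in untreated and 82.4, 81.5 and 82.9 in NaBu libraries (+15.7 ± 1.80, adjusted p = 0.000689) and was called under all 18 alternatives. After NaPr the groups did not overlap either, with 70.9, 67.9 and 70.2 against 76.9, 78.0 and 74.8, but the change was not called (+6.84 ± 2.67, adjusted p = 0.156). Of the 13 regions in the FFAR3 window, 6 had a peak in 1 library only. FFAR3 lies beside GPR42, a near-identical copy, and HCAR2 beside HCAR3, so reads within these gene bodies may have been shared between copies.

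At FFAR2 an intergenic region 10.8 kb downstream of the start (chr19:35458637-35459403) fell after NaBu, from 48.8, 52.9 and 63.2 to 0, 38.2 and 32.9 (−31.3 ± 10.1, adjusted p = 0.0408). Leaving out treated replicate 1 or 3, or any untreated library, ended that call (adjusted p up to 0.135), and without treated replicate 1, the library at 0, the change was −19.4 points. The region was not listed in the NaPr experiment. A region 1.34 kb inside FFAR2 that holds an alternative start of the gene was listed in all 12 libraries and was not called in either experiment (adjusted p = 0.612 for NaPr and 0.430 for NaBu). HCAR2 had 2 regions in its window. The tested one, 21.3 kb away, was listed in 2 NaPr treated libraries at 37.0 and 17.8 and in 0 untreated libraries (adjusted p = 0.272).

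The 18 related genes with windows of the same kind, other receptors for fatty and hydroxycarboxylic acids and other SLC16 carriers among them, gave 125 regions, 9 of them shared with the set. After NaBu 28 of 72 tested regions were called, 16 higher and 12 lower, a share of 38.9% against 37.1% of all regions. After NaPr 7 of 69 were called, 3 higher and 4 lower, a share of 10.1% against 5.32% of all regions. Among the called regions, the largest NaBu rise was 5.89 kb upstream of SLC16A11, from no peak to 48.2, 62.0 and 55.8. The largest NaBu fall was 18.0 kb upstream of SLC16A5, from 28.6, 24.3 and 35.6 to no peak. Both were tested through 1 group alone and had to differ. Among the regions called after NaPr, the largest rise was near SLC16A6, in an intron of ARSG (+52.4 ± 11.0, adjusted p = 0.0249), and the largest fall in a coding exon of SLC16A8, from 73.0, 70.7 and 72.3 to 50.6, 49.8 and 46.9 (−22.9 ± 4.73, adjusted p = 0.0237). The SLC16A6 change was 10.5 points within the top 50000 intervals (adjusted p = 0.194) and 19.5 with regions built from summits, and its call was lost without any 1 library other than untreated replicate 1 (up to 0.0890). The SLC16A8 call was lost without any 1 library (0.0532 to 0.102).

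The BSG promoter had the largest NaBu change of the 5 promoters. Over the 12 libraries, the promoter regions of 13145 genes whose ranks followed it most closely were those of MFSD6 (Pearson r = 0.992), MGLL (r = 0.988) and RHOT1 (r = 0.987). MGLL, the lipase that splits monoglycerides, went from 41.5 to 20.03 after NaBu. The 12 libraries share 2 experiments of different date and list length, and the BSG rank of untreated cells was 75.2 in one and 50.2 in the other, so these correlations are given as a description.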

How the data were processed

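ATAC-seq was performed on SW480 cells, and 12 libraries were analysed. Per the submitters' processing notes and the study's methods, reads were processed with bcl2fastq 2.17.1, cutadapt 1.9.1, Bowtie2 2.3.1 (GRCh38) and MACS2 2.1.0 in the ENCODE ATAC-seq pipeline, with peaks called in each library separately. The deposited lists hold, for each peak summit, the fold enrichment over local background as a ratio, and its −log10 p and −log10 q. The authors used DiffBind on read counts for differential accessibility, whereas the peak lists were used here, which puts the results on another scale. The 8 libraries of the mouse line CT26 were not used here. How reads shared by near-identical gene copies were placed is not given in the sources used here.

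Intervals of the 12 lists were merged on an overlap of 1 bp or more. The merged regions were ranked within a library by their highest −log10 p, as percentiles of the regions with a peak in that library, with 0 for no peak. Ranks do not show a change shared by all peaks. Each experiment was fitted alone with limma 3.58.1 in R 4.3.3 (lmFit, eBayes with trend, two-sided, no covariate), as tested on simulated data. Genes and exons were those of GENCODE 44, and promoter sequences those of RefSeq (GRCh38.p14). The lowest background pileup per library and the whole number of tags at each summit were recovered from fold and −log10 p as a Poisson test with a pseudocount of 1, which solved 100% of summits. Depth as read totals was not analysed here. No replicates of the same group shared enough intervals to be counted as 1. Libraries of different groups were not compared in this way.

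All 10 genes were named. One of the cell type markers sought is not reported here. For each, the promoter region and the up to 3 called regions of largest change per experiment were named, or, with none called, that of smallest p. Further called regions of SLC16A3 and BSG were chosen after their values were seen. So were the regions with another annotated start at FFAR2, SLC16A3 and BSG, and the printed windows. The genes, lists and tests were chosen with earlier results of these data known. Alternatives were another ranking measure, list length, region building, filter, window, pileup, replicate block and leaving out each library.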

Additional observations from a re-analysis of the deposited data

How the results depend on the processing

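The number of regions called among the 10 genes after NaPr, 5, depended on the processing. It was 1 without the eBayes trend, 0 of 72 when a peak in 1 library sufficed (11 at an unadjusted p under 0.05), 0 when regions were ranked by fold (7 unadjusted), 2 with summit pileup scaled by background, 14 with pileup scaled by its median, 3 with 5 kb windows and 9 with 50 kb windows. Leaving out 1 library gave 0 to 1. The number after NaBu, 19, was 10 when a peak in all 6 libraries was required, 8 within the top 50000 intervals, 11 with 5 kb windows and 36 with 50 kb windows, and 15 to 18 when 1 library was left out. The other alternatives gave 5 to 7 regions after NaPr and 13 to 20 after NaBu, which is within 1.5 times. Shares over all regions were given above only for the main fit and for the same number of top regions. The counts under other settings therefore do not tell a change in the 10 genes from one over all regions. The choice of pileup scaling shifted all NaPr log2 changes by 0.26, so directions there are relative to it, and all NaBu changes by less than 0.01.

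Deviations of libraries with the same replicate number correlated by 0.005 to 0.018 in the NaPr and 0.008 to 0.031 in the NaBu experiment. The ranks thus showed no trace of pairing by number, but cannot tell whether the libraries were handled in pairs. With the replicate number as a block, 6 regions were called after NaPr and 19 after NaBu. Over 446 single values after NaPr, 64 lost their call, 8 gained one and 358 kept both direction and side of the threshold. Over 499 after NaBu, 39 lost it, 4 gained one and 438 kept both. Of called changes, 1 turned its direction, that of the region 17.8 kb downstream of the SLC16A3 start, to −0.63 points when ranked by fold. The rest were uncalled changes of sign. Causes were not tested. Scores of weak regions depend on each library's own limit, since a peak below it is scored 0.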
